A study of Mus musculus with 38 samples.

Results

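The pluripotent cells described here are 1825 of the 8685 cells that were sequenced one by one after mouse fibroblasts had been reprogrammed for 7 days without BMP4. They were selected by name: each column of the deposited table of unique molecular identifiers (UMIs, 1 for each captured RNA molecule) carries a sample and a cell type, and the columns with the prefix JGES and the type Pluripotent cells were taken. They make up 21.0% of the BMP4- cells (95% exact Clopper-Pearson interval 20.2 to 21.9%) and 1825 of the 20020 cells of both JGES samples. None of the 11335 cells of the BMP4+ sample has this type. With 3 cells as the upper limit for a count of 0, this allows a share of up to 0.0265%. Intervals and limits in this text cover counting error only.

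The starting cells were mouse embryonic fibroblasts from E13.5 embryos. The study's methods name embryos of an Oct4-GFP reporter line (OG2) crossed with 129S4/SvJaeJ, of either sex. Retroviruses carried in 4 factors named together JGES: Jdp2, Glis1, Esrrb and Sall4. After 2 days of infection the cells were kept in iCD3, a reprogramming medium whose additions included vitamin C, LIF, bFGF, the GSK3 inhibitor CHIR99021, the DOT1L inhibitor SGC0946, an LSD1 inhibitor and the ROCK inhibitor Y27632. The BMP4+ cells had in addition 10 ng/ml of BMP4 for the 7 days, and the study's methods name no other difference in treatment. Each condition was 1 droplet sample, so no comparison in this text has replicates or a p-value, and sample, depth and BMP4 cannot be told apart between the conditions. The table also holds mouse embryonic stem cells (ESCs), 6239 columns taken from other work, which serve as an outside reference.

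Pluripotent cells can form every tissue of the embryo. Their identity rests on a set of transcription factors, with OCT4 (gene Pou5f1), SOX2 and NANOG at the core and KLF, ESRRB and TFCP2L1 around them in the naive state, which LIF and inhibition of GSK3 help to keep. In culture, BMP signals act through SMAD proteins on the Id genes, and at higher activity they favour extra-embryonic and mesodermal fates.

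The pluripotent cells had a median of 15444 UMIs (range 4163 to 57071) and 3159 genes per cell. The 6211 intermediate state, 507 endothelial and 142 ParE cells of the same sample (ParE is the table's label, not explained there, and is taken here for the cells that the study calls primitive endoderm-like) had medians of 11892, 15083 and 11562 UMIs, and the ESC columns 25970. Mitochondrial genes took a median of 3.04% of the UMIs in pluripotent cells against 3.82% in intermediate cells, and ribosomal protein genes 40.0% against 41.8%, with 29.6% in the ESC columns. No barcode of the pluripotent cells recurred in the other BMP4- types, 16 recurred among the ESC columns, and 2 barcodes were shared by the BMP4- and BMP4+ samples. Because depths differed, shares of cells with a UMI are given after each cell had been thinned at random to 4000 UMIs, a depth that every cell reached.

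The cell type name was checked against 5 markers. Levels are CPM, the summed UMIs of a gene scaled to 1e6 summed UMIs of that type. Nanog, one of the core factors, was at 99.9 CPM in pluripotent cells, 5.72 in intermediate, 7.01 in endothelial and 5.82 in ParE cells. Zfp42 (REX1), a zinc finger protein of naive cells, was at 231, 6.08, 7.13 and 25.4 CPM in the same order. Dppa5a, an RNA-binding protein of early embryo and germ cells, was at 6305, 261, 253 and 809 CPM. All 3 genes, and Tdgf1 and Utf1, were highest in the annotated cells among the 4 types.

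Per cell, the separation was wide but not complete. After thinning, Dppa5a had a UMI in 98.3% of pluripotent cells and in 64.5% of intermediate cells, Zfp42 in 54.7% and 2.14%, Utf1 in 49.4% and 3.19%, Nanog in 30.03% and 2.16%, and Tdgf1 in 29.8% and 1.37%. Before thinning, 1681 of the 1825 cells had UMIs of at least 3 of the 5 markers and 1 cell had none. The summed UMIs of 32 pluripotency genes (15 transcription factors and 17 effectors, without Dppa5a) had a median of 18 per 4000 UMIs in pluripotent cells (5th to 95th percentile 9 to 30) and 2 in intermediate cells (0 to 6.5). In 42 pluripotent cells (2.30%) this sum was at or under the 95th percentile of intermediate cells, and in 148 intermediate cells (2.38%) it reached the 5th percentile of pluripotent cells.

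**Figure D1:**
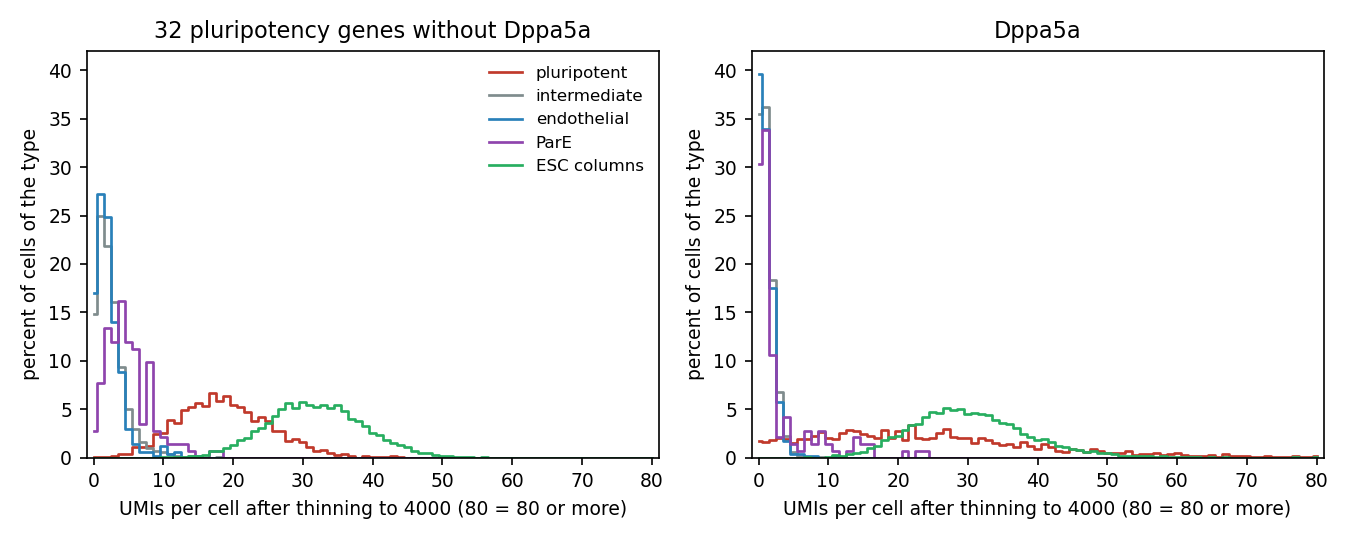
Histograms of UMIs per cell after thinning to 4000 UMIs, as the percent of cells of each type, for the sum of 32 pluripotency genes (left) and for Dppa5a (right). The sum has a median of 18 in pluripotent cells, 2 in intermediate cells and 32 in the ESC columns, while Dppa5a is spread much more widely in pluripotent cells (5th to 95th percentile 2 to 57) than in the ESC columns (18 to 46).

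Low levels of these genes were also counted in the other types. Over the 100 genes with the highest ratio of pluripotent to other cells, each seen in 10% or more of the pluripotent cells, the level in intermediate cells was a median of 3.56% of the pluripotent level (10th to 90th percentile 2.60 to 4.91%), in endothelial cells a median of 3.38% (1.13 to 5.35%), and in ParE cells a median of 4.36% with a wider range (0 to 13.2%, highest gene 38.3%). This range is partly fixed by the choice of genes. The part of RNA set free from cells in these values was not tested. Whether the 64.5% of intermediate and 60.4% of endothelial cells with a UMI of Dppa5a express the gene was likewise not tested.

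The annotation was made from the same counts, so the contrasts between types describe the annotated cells and test nothing. Of 7451 genes with at least 10 CPM in pluripotent cells or in all other BMP4- cells, 276 (3.7%) were at least 4-fold higher and 325 (4.36%) at least 4-fold lower in pluripotent cells, and the median log2 ratio was 0.00. With totals that leave out mitochondrial and ribosomal protein genes, 371 were higher and 531 lower. Against each type alone, 282 genes (3.79%) were at least 4-fold higher and 326 (4.39%) lower than in intermediate cells, 329 (4.42%) higher and 375 (5.04%) lower than in endothelial cells, and 298 (3.93%) higher and 414 (5.46%) lower than in ParE cells. The log2 ratios below compare pluripotent cells with all other BMP4- cells unless another group is named.

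Of 15 pluripotency transcription factors, 13 reached 10 CPM, and 7 of those were at least 4-fold higher in pluripotent cells, none at least 4-fold lower, with a median log2 ratio of 3.49. Pou5f1 was at 899 CPM in pluripotent, 54.4 in intermediate, 44.7 in endothelial and 196 in ParE cells. Klf2, a naive factor, was at 293 CPM against 13.7 in intermediate cells (4.42). Tfcp2l1, another naive factor, was at 49.4 against 3.76 CPM, and Nr0b1 (DAX1), a partner of OCT4, at 27.3 against 1.74 CPM. The levels of these genes in intermediate cells lay at a similar small part of the pluripotent level.

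Sox2 was different. It stood at 217 CPM in pluripotent cells, 77.1 in intermediate, 28.7 in endothelial and 19.04 in ParE cells, so its level in intermediate cells was 35.6% of that in pluripotent cells. After thinning, 23.3% of intermediate cells had a Sox2 UMI, compared with 8.68% of endothelial cells. Mycn, a proliferation factor, was at 17.96 CPM in pluripotent and 22.5 in intermediate cells. Klf4, Klf5 and Tbx3, also counted among the naive factors, were higher in ParE cells (76.2, 162 and 65.6 CPM) than in pluripotent cells (31.8, 131 and 26.7 CPM).

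The Nanog promoter is shown because Nanog marks these cells and its sequence holds both kinds of site that OCT4 and SOX2 are known to bind. Nanog lies on chromosome 6 at 122707489-122714633 (mm10, plus strand). The bases below are chr6:122707239-122707538 of GRCm38.p6 from the RefSeq promoter table, plus strand, 250 bases before to 50 after an annotated start. Capitals mark the octamer ATGCAAA, here on the other strand as TTTGCAT and beginning 75 bases before the start, and ACAATG, a core of SOX sites, beginning 67 bases before the start. A single base separates the pair, which do not overlap. RefSeq holds another Nanog start, and the same octamer and ACAATG begin 151 and 143 bases before that one.

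Nanog promoter: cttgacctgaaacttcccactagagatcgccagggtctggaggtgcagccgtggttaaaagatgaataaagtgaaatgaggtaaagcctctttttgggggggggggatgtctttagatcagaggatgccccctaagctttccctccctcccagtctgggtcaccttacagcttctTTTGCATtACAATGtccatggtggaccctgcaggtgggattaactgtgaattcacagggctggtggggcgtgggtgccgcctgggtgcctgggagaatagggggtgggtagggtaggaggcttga

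Searched on both strands, ATGCAAA was found in the promoters of 3 of the 11 transcription factor genes with an entry (Nanog, Sox2 and Zfp42), in 6 of 79 leading genes with an entry (7.59%) and in 5.24% of all 27025 genes of the table. ACAATG was found for Nanog and Pou5f1, in 10.1% of the leading genes and in 14.3% of all genes. These matches describe the letters in this window only.

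The pluripotency effectors are genes that mark or maintain the state without being its core factors. Of 17 with at least 10 CPM (of 18), 13 were at least 4-fold higher in pluripotent cells and none at least 4-fold lower, with a median log2 ratio of 3.75. Dppa3 (STELLA), which guards maternal methylation in the zygote and is active in germ cells, was at 277 CPM against 14.6 in intermediate cells (4.28 against all other cells). Dppa4, a chromatin protein of pluripotent cells, was at 73.0 against 3.21 CPM. Tdh, which breaks down threonine in mouse pluripotent cells, was at 258 against 19.5 CPM, and Morc1, a repressor of transposons in germ cells, at 84.8 against 3.19 CPM. Mkrn1, a ubiquitin ligase, was at 1046 CPM in pluripotent and 160 in intermediate cells, 6.52-fold higher. The low end of the list was Jarid2, a cofactor of Polycomb repression (0.50), and Lin28a, an inhibitor of let-7 maturation (0.53).

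**Figure D2:**
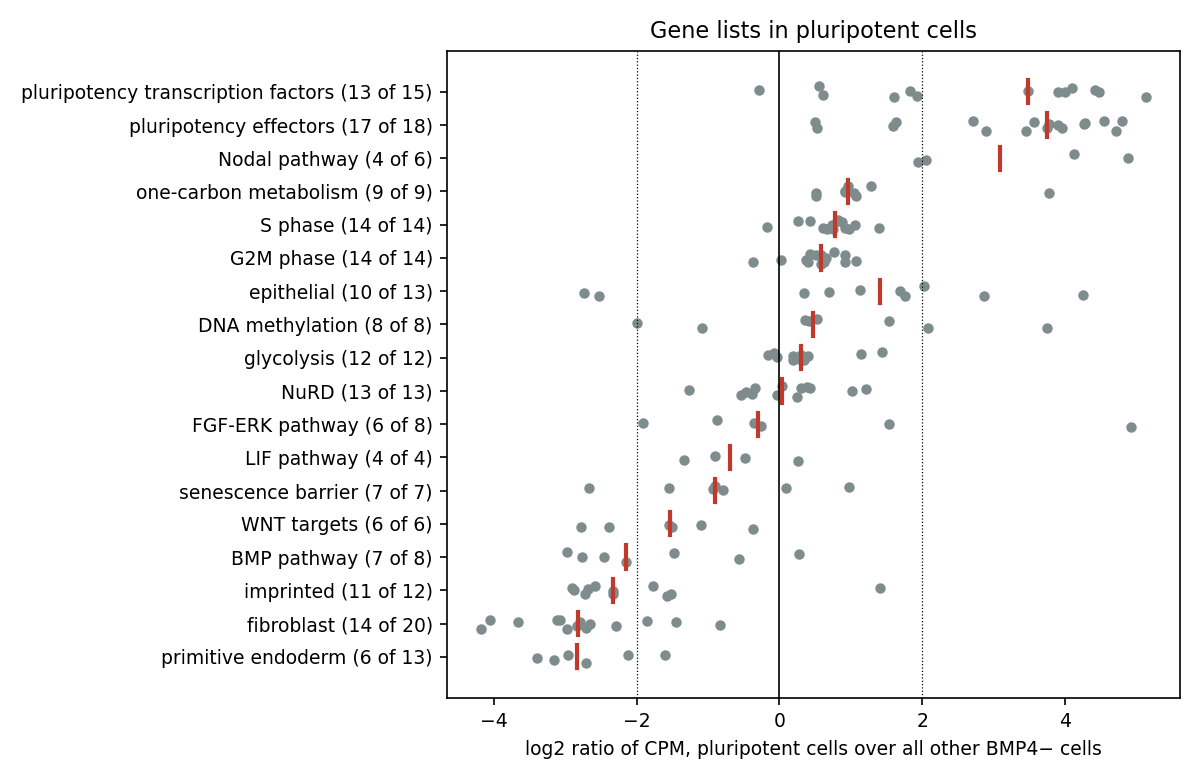
Log2 ratio of CPM in pluripotent cells over all other BMP4- cells for the members of 18 gene lists with at least 10 CPM in either group (number of members plotted of all in brackets). Each grey point is a gene, red bars are list medians and dotted lines mark 4-fold. The medians run from 3.75 for the pluripotency effectors to -2.84 for the primitive endoderm list.

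The 4 delivered factors did not stand high together. Esrrb, an orphan nuclear receptor of the naive network, was at 35.6 CPM in pluripotent and 7.66 in intermediate cells, and Sall4, a zinc finger factor that recruits NuRD, at 60.5 and 22.8 CPM. Jdp2, an AP-1 repressor, was at 2.999 CPM in pluripotent, 9.65 in intermediate and 83.4 over all BMP4+ cells. Glis1, a maternal zinc finger factor, was at 0.303 CPM. Viral and endogenous copies share these gene names and were not told apart. The 13 measured members of NuRD, the chromatin complex with histone deacetylase activity, lay within 4-fold with a median log2 ratio of 0.03, from Chd3 (-1.27) to Mta3 (1.21). Hdac1 was at 90.8 CPM against 44.7 in intermediate cells.

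Nodal pathway genes were high in pluripotent cells. Tdgf1, the co-receptor of NODAL, was at 98.7 CPM against 3.38 in intermediate cells (4.88). Gdf3, a ligand of the family, was at 44.2 against 2.63 CPM. Lefty1 and Lefty2, inhibitors that NODAL itself induces, were at 77.5 and 42.8 CPM and at 20.4 and 12.2 CPM in intermediate cells. Of 6 members, 4 reached 10 CPM and 3 of them were at least 4-fold higher, and the list's median log2 ratio was 3.09.

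Of the genes of FGF signalling, Fgf4 stood out. Fgf4, the ligand that pluripotent cells secrete, was at 42.3 CPM in pluripotent cells and at 1.27, 2.73 and 1.06 CPM in intermediate, endothelial and ParE cells (4.92). Etv5, an ETS factor downstream of FGF, was at 63.6 against 23.1 CPM in intermediate cells. Dusp6, an ERK phosphatase and a usual readout of the pathway, was at 7.35 against 29.5 CPM, and Spry2, a feedback inhibitor, at 25.1 against 33.6 CPM. Of 6 members measured (of 8), 1 was at least 4-fold higher and none at least 4-fold lower, with a median of -0.30. The 4 genes of the LIF pathway had a median of -0.69, with Stat3 at 18.3 CPM in pluripotent and 42.3 in intermediate cells and Socs3 at 19.2 and 36.7 CPM.

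Genes of the BMP pathway were low as a list although neither type had received BMP4. The list holds the ligand Bmp4 and the receptor Bmpr1a beside target genes. Of 7 members measured (of 8), 4 were at least 4-fold lower in pluripotent cells, with a median log2 ratio of -2.15. Id1, an inhibitor of basic helix-loop-helix factors, was at 27.4 CPM in pluripotent, 202 in intermediate, 41.1 in endothelial, 117 in ParE cells and 550 over all BMP4+ cells. Id2 was at 28.4 CPM against 245 in intermediate cells, and Id3 at 74.4 against 446. Bmp4 itself was at 12.3 against 55.4 CPM. Smad7, an inhibitor of the pathway, was at 17.8 against 15.2 CPM. Endothelial cells lay near pluripotent cells for Id1 and Id2, so these low levels were not particular to the latter.

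The 6 WNT targets had a median of -1.53, and 2 were at least 4-fold lower. Nkd1, an inhibitor of the pathway, was at 14.1 CPM against 102 in intermediate cells, and T (Brachyury), a mesoderm factor, at 3.61 against 20.2. Of 9 genes of the primed, post-implantation state, 2 reached 10 CPM: Dnmt3b, a de novo DNA methyltransferase (41.5 against 12.4 CPM), and Zic5 (11.6 against 5.19). Fgf5, the usual primed marker, was at 0.0674 CPM, and Otx2, a factor of the onset of priming, at 6.44 CPM. Of 10 genes of the 2-cell-like state, 7 were in the table and none of these reached 10 CPM, and Zscan4c was at 1.11 CPM.

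Germline genes were low in level but much lower in the other types. Dazl, an RNA-binding protein of germ cells, was at 40.2 CPM in pluripotent cells, 1.64 in intermediate, 1.78 in endothelial, 1.59 in ParE, 0.386 over all BMP4+ cells and 5.53 in the ESC columns. Mael, a piRNA pathway protein, was at 10.1 against 0.313 CPM in intermediate cells, and Sycp1 and Sycp3, parts of the synaptonemal complex of meiosis, at 5.93 and 9.54 against 0.0962 and 0.565 CPM. Only Dazl and Mael of the 11 list members reached 10 CPM, and both were at least 4-fold higher. After thinning, 73.2% of pluripotent cells had no UMI of the 11 genes, compared with 98.2% of intermediate cells.

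Promoters of Sycp3 and Mael are shown because germline genes of this kind share a short motif, the E-box CACGTG. Capitals mark CACGTG, which reads the same on both strands. In Sycp3 (chr10:88459337-88459636, plus strand) the motifs begin 64 and 43 bases before the start, and in Mael (chr1:166238695-166238994, minus strand) 223 bases before it, both from the RefSeq promoter table of GRCm38.p6.

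Sycp3 promoter: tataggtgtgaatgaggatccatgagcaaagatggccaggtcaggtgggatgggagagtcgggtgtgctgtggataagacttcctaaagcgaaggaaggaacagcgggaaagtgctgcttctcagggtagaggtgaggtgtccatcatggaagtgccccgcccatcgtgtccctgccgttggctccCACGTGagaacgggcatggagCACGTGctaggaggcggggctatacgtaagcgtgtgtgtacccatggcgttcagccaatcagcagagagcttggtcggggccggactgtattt
Mael promoter: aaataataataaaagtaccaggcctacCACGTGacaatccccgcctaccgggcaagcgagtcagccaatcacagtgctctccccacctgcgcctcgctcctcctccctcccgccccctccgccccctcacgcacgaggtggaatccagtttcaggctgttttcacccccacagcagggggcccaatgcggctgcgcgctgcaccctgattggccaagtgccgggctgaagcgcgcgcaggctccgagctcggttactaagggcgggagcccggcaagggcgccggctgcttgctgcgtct

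CACGTG was found in the promoters of 8 of 11 germline genes (Ddx4, Hormad1, Mael, Slc25a31, Stk31, Sycp1, Sycp3 and Taf7l, 72.7%), in 6 of 79 leading genes (7.59%) and in 8.09% of all genes. The germline promoters held a median of 24 CpG per 300 bases, compared with 7 over all promoters. Dazl, the most abundant member of the list in these cells, had no CACGTG in this window.

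Among genes of DNA methylation, Dnmt3l, the catalytically inactive partner of the de novo enzymes, was at 31.4 CPM against 2.28 in intermediate cells, and Tet1, a 5-methylcytosine oxidase, at 51.2 against 12.5 CPM. Both were at least 4-fold higher than over all other cells. Dnmt3a and Tet3 lay in the other direction, at 23.3 against 50.3 CPM and 4.08 against 16.1 CPM. Dnmt1 and Uhrf1, which maintain methylation after replication, were at 45.6 against 33.6 and 74.0 against 52.0 CPM.

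Imprinted genes, expressed from 1 parental allele, were lower as a list: of 11 measured (of 12), 7 were at least 4-fold lower in pluripotent cells, with a median of -2.33. H19, a noncoding RNA, was at 334 CPM in pluripotent, 2162 in intermediate, 5665 in endothelial, 1247 in ParE cells and 9.98 in the ESC columns. Meg3 was at 95.9 CPM against 631 in intermediate cells, and Cdkn1c at 61.6 against 379. Snrpn was the exception with 153 against 59.3 CPM. Against the ESC columns, 5 of 9 tested imprinted genes were at least 4-fold higher in pluripotent cells (median log2 2.04), compared with 3.12% of all genes tested.

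Xist, the noncoding RNA that coats the inactive X chromosome, was at 48.9 CPM in pluripotent, 414 in intermediate, 360 in endothelial and 650 in ParE cells and at 4.31 CPM in the ESC columns. The fibroblasts came from embryos of both sexes, so the makeup was looked at after the levels were seen. After thinning, 14.3% of pluripotent and 15.8% of intermediate cells had a UMI of a Y-linked gene. Among cells without such a UMI, 11.9% of pluripotent, 55.1% of intermediate, 57.1% of endothelial and 62.0% of ParE cells had a UMI of Xist. The part of the sex makeup in the Xist levels was not tested.

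Fibroblast genes were low. Of 14 measured (of 20), 11 were at least 4-fold lower in pluripotent cells and none higher, with a median of -2.81. Tagln and Acta2, contractile proteins of the fibroblast cytoskeleton, were at 3.94 and 2.09 CPM against 72.9 and 41.8 in intermediate cells. Vim, the intermediate filament of mesenchyme, remained at 159 against 428 CPM. Epithelial adhesion genes lay in the opposite direction: Epcam was at 161 CPM in pluripotent, 19.9 in intermediate and 161 in ParE cells, and Rab25, a vesicle GTPase of epithelia, at 11.6 against 0.553 CPM in intermediate cells. Krt8 and Krt18, keratins of simple epithelia, were low instead (2.696 and 20.3 CPM against 17.3 and 114), so the epithelial list held 3 genes at least 4-fold higher and 2 at least 4-fold lower among 10 measured.

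Markers of primitive endoderm were low, and those of endothelial and trophoblast cells were mixed. Of 6 primitive endoderm genes measured (of 13), 5 were at least 4-fold lower in pluripotent cells and 0 higher. Of 3 endothelial genes measured (of 8), 1 was at least 4-fold higher and 1 lower, as were 1 and 1 of 2 trophoblast genes. Gata4 and Sox17, factors of primitive endoderm, were at 0.337 and 1.01 CPM in pluripotent and 59.8 and 155 CPM in ParE cells, and 18 of 1825 pluripotent cells (0.986%) had a UMI of Gata4, Gata6 or Sox17 after thinning, compared with 72.5% of ParE cells. Kdr, a receptor of endothelial cells, was at 1.45 CPM against 141 in endothelial cells. Pecam1, an adhesion molecule that ESCs also carry, was at 27.4 CPM, close to 31.8 in endothelial cells. Of 9 trophoblast genes 2 reached 10 CPM, Tfap2c at 29.5 against 4.68 CPM in intermediate cells and Dlx3 at 2.59 against 19.01 CPM. Of 10 macrophage genes none reached 10 CPM, and C1qb, C1qc and Adgre1 were at 0 UMIs. The 10 genes summed to 6.91 CPM, compared with 2.71 in intermediate, 71.0 in endothelial and 1.59 in ParE cells.

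Genes of the cell cycle were moderately higher. Of 14 S phase genes 13 lay above 0, none reached 4-fold, and the median log2 ratio was 0.77; for 14 G2M genes the median was 0.58. Ung, a uracil DNA glycosylase, was at 76.4 CPM against 29.5 in intermediate cells. Ccnd2 (cyclin D2) was at 33.3 against 227 CPM, and Cdkn1a (p21), an inhibitor of cyclin-dependent kinases, at 203 against 377. Trp53 was at 150 against 76.7 CPM. All 9 genes of one-carbon metabolism lay above 0 (median 0.96), while the 12 glycolysis genes had a median of 0.30, with Hk2 at 125 against 55.1 CPM.

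The highest ratio of any gene with at least 50 CPM belonged to Fthl17c, an X-linked ferritin-like gene, at 115 CPM in pluripotent cells and 2.77, 3.09 and 4.76 CPM in intermediate, endothelial and ParE cells (5.34). It was followed by Platr3, a noncoding RNA of pluripotent cells, and Zfp42 (5.19 and 5.14). At the other end stood Tagln (-4.05), a fibroblast and smooth muscle gene at 3.94 CPM in pluripotent, 72.9 in intermediate, 4.28 in endothelial and 2.65 in ParE cells, so its low level was shared with the last pair of types. The secreted proteins Dcpp3 and Dcpp2 (-3.87 and -3.77) were at 8.997 and 6.2004 CPM in pluripotent and no higher in ParE cells (6.35 and 3.703), but at 120 and 80.2 in intermediate and 269 and 145 CPM in endothelial cells. They were followed by Dcpp1 (-3.67) and Col4a1, a basement membrane collagen (-3.40). Dcpp1, Dcpp2 and Dcpp3 are near-identical neighbours whose reads can be split between them.

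Compared with the ESC columns, the pluripotent cells had lower levels of most network genes. Sample, depth and processing of the ESC columns differ, so this contrast cannot separate cell state from library. Of 6919 genes tested, 216 (3.12%) were at least 4-fold higher and 86 (1.24%) at least 4-fold lower, with a median log2 ratio of -0.23. These counts rest on the scaling: 426 were higher with totals that leave out mitochondrial and ribosomal protein genes, and 57 were lower after scaling by the median ratio. The transcription factors had a median of -1.10 and 4 of 14 were at least 4-fold lower. Klf4 was at 31.8 against 236 CPM, Klf2 at 293 against 1319, Tbx3 at 26.7 against 157 and Nr0b1 at 27.3 against 113, while Pou5f1 (899 against 1623), Sox2 (217 against 265) and Utf1 (204 against 303) lay closer. In the Nodal list Lefty2 was at 42.8 against 394 CPM and Tdgf1 at 98.7 against 435. S phase genes were lower too (median -1.23).

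The opposite direction was seen for Dppa3 (277 against 46.1 CPM), Dazl (40.2 against 5.53) and Fthl17c (115 against 1.079). 1700013H16Rik was at 73.2 against 0.725 CPM. After thinning, 53.2% of pluripotent cells and 15.8% of ESCs had a UMI of Dppa3, although Nanog had one in 30.03% and 63.1%. Igfbp4, an IGF-binding protein, was at 145 against 6.47 CPM, but at 983 CPM in intermediate cells. The lowest ratios against the ESC columns belong to Atp5o, Srp54b and Fdx1l, which have at most 15 UMIs in pluripotent cells and are as low in the other BMP4- types, and these are not read as properties of the pluripotent cells.

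Dppa5a, Lefty1 and Gapdh varied more among the pluripotent cells than among the ESC columns. Dppa5a had a variance over mean (Fano factor) of 11.1 per 4000 UMIs, compared with 2.61 in the ESC columns, and the median over genes with a mean of at least 0.1 was 1.05 against 1.02. Lefty1 had 5.12 against 2.89. Gapdh, a glycolytic enzyme of every cell, had 3.12 against 1.52.

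Cells were then divided by Dppa5a, a split chosen after the values had been seen. The low group held 474 cells with up to 12 UMIs per 4000 and the high group 465 with 34 or more, at median depths of 14468 and 16663 UMIs. Fgf4 was at 13.2 CPM (exact Poisson interval 8.53 to 19.5) in the low and 54.8 CPM (44.7 to 66.6) in the high group, a log2 difference of 2.06. Fthl17c went from 43.8 to 162 CPM, Lefty1 from 44.3 to 121, Dazl from 20.04 to 49.5 and Klf4 from 18.99 to 41.9. Over all annotated cells, Pou5f1 and Nanog differed less, by 0.64 and 0.66 on the log2 scale. Higher in the low group were Ccnd2 (67.0 against 8.60 CPM), Xist (83.3 against 22.0), Id3 (120 against 34.4), H19 (493 against 211) and Utf1 (254 against 148). Sox2 was nearly level (241 against 203).

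Clustering (Leiden, resolution 1) placed 1377 of the annotated cells in a large cluster and 393 (21.5% of the annotated cells) in a small one, with 55 elsewhere. The same graph of similar cells was clustered 15 times, with resolutions from 0.5 to 1.5 and 3 seeds, which includes the clustering described. Of the small cluster's cells, 94.4 to 100% stayed together. The cluster that held most of them was never the one that held most of the large cluster's cells. Cells of the large cluster made up at most 7.67% of it. Its median depth was lower, 13537 against 15989 UMIs. The clusters are drawn from the counts they are described by, so what follows is not a test. Of 6749 genes with at least 10 CPM in either, 21 (0.311%) were at least 4-fold higher and 86 (1.27%) at least 4-fold lower in the small cluster, with a median log2 ratio of 0.03 and 47.7% of the genes below 0.

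The clusters and the split by Dppa5a overlap and are not separate results. The low Dppa5a group held 210 cells of the small and 211 of the large cluster, and the high group 18 and 447. Dividing the 1377 cells of the large cluster by Dppa5a alone, chosen after seeing the data, gave other log2 differences (high over low group) for many of the genes above. In all annotated cells and in the large cluster alone, they were 2.06 and 0.86 for Fgf4, 1.89 and 0.87 for Fthl17c, 2.002 and 0.98 for Fam25c, 1.45 and 0.48 for Lefty1, and 1.303 and 0.72 for Dazl. Pou5f1 (0.64 and 0.78) and Nanog (0.66 and 0.85) thus differed about as much as Fgf4 and Dazl within the large cluster. Lefty1 differed less there, but its interval (0.08 to 0.88) overlapped those of Pou5f1 (0.66 to 0.90) and Nanog (0.48 to 1.21). Klf4 (1.14 and 0.24), Tfap2c (-1.14 and -0.09) and Sox2 (-0.25 and 0.12) had intervals that included 0 in the large cluster. Ccnd2 (-2.96 and -2.04), Xist (-1.92 and -1.76), Id3 (-1.81 and -1.71), H19 (-1.22 and -1.44) and Tcl1 (1.29 and 1.46) were at least 2-fold apart in both.

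The core factors were close between the clusters: Pou5f1 was at 914 CPM in the large and 887 in the small cluster, Sox2 at 205 and 263, Nanog at 105 and 85.1, Zfp42 at 248 and 193, and Esrrb at 34.5 and 41.8. Of the 5 markers used for the check above, Nanog and Zfp42 were thus close, while Dppa5a and Tdgf1 were lower and Utf1 was higher in the small cluster (values below).

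Higher in the small cluster were the X-linked homeobox genes Rhox6 (79.6 against 3.28 CPM) and Rhox9 (85.8 against 4.88 CPM), which are known from placenta and germ cells. Dnd1, an RNA-binding protein that primordial germ cells need, was at 46.6 against 6.65 CPM (2.81). Dppa3 was at 587 against 202 CPM, Tfap2c, an AP-2 factor of germ cells and trophoblast, at 60.3 against 20.9, Utf1 at 380 against 162 and Sox15 at 91.5 against 31.9. After these values were seen, other genes of primordial germ cells were looked up: Nanos3, an RNA-binding protein that keeps such cells alive, was at 34.4 against 8.55 CPM, Prdm1 (BLIMP1), a repressor that sets up their fate, at 12.5 against 4.19, and Prdm14 at 6.23 against 2.85. Kit, the receptor of stem cell factor, was at 24.2 against 14.9 CPM, Ifitm3 at 1100 against 559 and Rhox5 at 379 against 350.

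Per cell, 227 of the 393 cells of the small cluster (57.8%) had UMIs of at least 2 of Rhox6, Rhox9, Dnd1 and Nanos3, compared with 64 of 1377 (4.65%) in the large cluster. After thinning these shares were 17.05% (13.5 to 21.1%) and 0.363% (0.118 to 0.845%). Of the 5612 intermediate cells outside a further cluster described below, 2 had them after thinning. In the ESC columns Rhox6 was at 2.34 and Rhox9 at 2.73 CPM, and over all BMP4+ cells at 37.7 and 21.2 CPM, where Pou5f1 was at 3.14.

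Lower in the small cluster were Fgf4 (5.87 against 52.8 CPM, log2 -3.17), Tbx3 (4.98 against 32.7), Klf4 (7.83 against 38.2), Lefty1 (21.4 against 91.3), Tdgf1 (38.5 against 116) and Fthl17c (26.2 against 140). Among lists with at least 5 genes tested, the 4 lowest medians were those of the Nodal pathway (-1.59, 4 of 5 below 0), DNA methylation (-1.35, 6 of 7), the imprinted genes (-0.74, 8 of 9) and the BMP pathway (-0.60, 6 of 7). The highest medians were those of the G2M phase (0.39, 11 of 14 above 0) and the S phase (0.09, 11 of 14 above 0). In the DNA methylation list Dnmt3b was at 8.90 against 50.2 CPM, Dnmt3l at 8.01 against 38.1, Dnmt3a at 10.3 against 26.3 and Uhrf1 at 30.1 against 86.2. Stmn2, a microtubule regulator of neurons, was at 66.2 against 457 CPM. Dppa5a was at 3432 against 7219 CPM. The germline list itself was lower: Dazl was at 24.4 against 45.3 CPM and Mael at 4.81 against 11.8, the 2 members with at least 10 CPM in either cluster (median log2 -1.09), and the 11 members summed to 58.6 against 103 CPM. Of the germ cell genes named as higher, Dppa3 is in the effector list, Tfap2c in the trophoblast list and Prdm14 in the transcription factor list, and the others were named after their values were seen. Xist was level at 46.6 and 44.3 CPM.

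**Figure D3:**
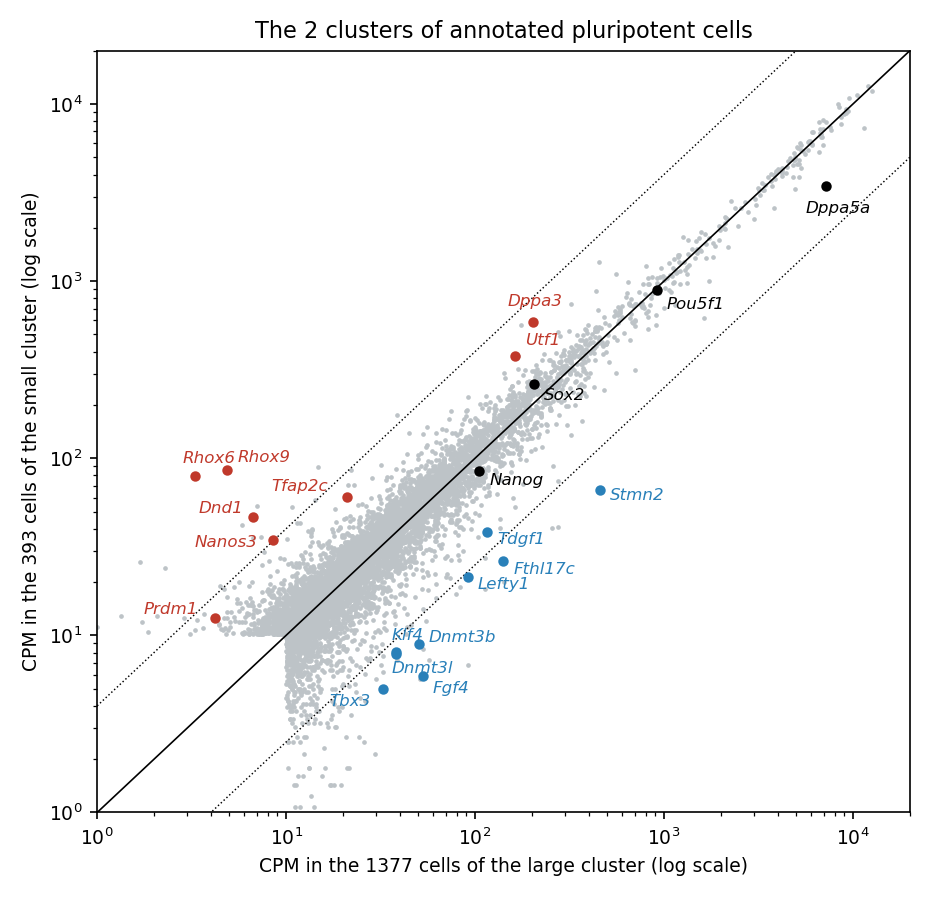
CPM of each gene in the large cluster (x axis) and the small cluster (y axis) of annotated pluripotent cells, both log axes starting at 1. Red marks named genes higher and blue named genes lower in the small cluster, black those named for comparison, the solid line equality and dotted lines 4-fold. Rhox6 and Rhox9 lie above the upper dotted line, Fgf4, Tbx3, Klf4 and Dnmt3b under the lower one, and Pou5f1 near the solid line at 914 and 887 CPM.

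Outside the large and the small cluster, the cluster with the most annotated pluripotent cells held 45 of them and 599 cells of the intermediate type. In those 599 cells Lefty1 was at 132 CPM and Lefty2 at 77.5, compared with 6.89 and 4.25 in the other 5612 intermediate cells and 91.3 for Lefty1 in the large pluripotent cluster. Pou5f1 was at 162 against 41.3 CPM, Utf1 at 32.1 against 6.46, Lin28a at 62.5 against 9.73 and Nanog at 14.9 against 4.61. Dppa5a (293 against 258 CPM) was nearly level, and Sox2 (43.0 against 81.3) was lower. Thus Lefty1 was above the pluripotent level in cells that had no more than a small part of its Dppa5a.

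Bulk RNA-seq of the same scheme gave libraries that the annotation had not used: 1 library each at days 0, 1, 3, 5 and 7 without BMP4 and at days 1, 3, 5 and 7 with it, in FPKM (fragments scaled by transcript length and library size). In bulk, fewer cells of a type and less RNA per cell cannot be told apart. Of the 100 leading genes of the pluripotent cells, 93 were in the table. At day 0, 3 of them had at least 1 FPKM, and at day 7 without BMP4 75 did. Among the 17200 genes with at least 1 FPKM in any of these libraries, the counts were 12565 and 14166. The median of the 93 genes without BMP4 was 0 FPKM up to day 3, 1.82 at day 5 and 4.62 at day 7. The 93 genes were chosen in cells of day 7, so a high level on that day is partly fixed by the choice. At day 7 with BMP4 their median was 0.165 FPKM, 87 of 93 were lower than without it and 3 higher, and 50 were at least 4-fold lower on the log2(FPKM + 1) scale. Over all 17200 genes with at least 1 FPKM in any of these libraries, 54.5% were lower and 2.8% at least 4-fold lower with BMP4. The median log2 difference of the 93 genes was -2.24, and -4.21 with a pseudocount of 0.1 FPKM in place of 1.

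Single genes differed in when they appeared. Sox2 was at 5.85, 59.5, 117, 113 and 165 FPKM at days 0, 1, 3, 5 and 7 without BMP4, and so was already high at day 1. Nanog was at 0, 2.22, 13.1, 40.8 and 60.5 FPKM, and Pou5f1 at 0.93, 9.004, 50.1, 170 and 230. Dppa5a came later, at 0, 1.52, 3.77, 236 and 527 FPKM. Dppa3 was at 0, 0, 1.69, 15.4 and 30.7 FPKM, and Dazl at 0, 0, 0, 1.298 and 20.6. The last of these was thus low at day 5, when Nanog had reached most of its day 7 level.

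Lefty1 was the only one of these examples with a fall at the end, at 0, 0, 1.94, 19.2 and 5.46 FPKM. At day 7 with BMP4, Nanog was at 1.82, Pou5f1 at 6.08, Dppa5a at 19.2, Dppa3 at 0.43 and Dazl at 0.62 FPKM. Id1 ran the other way, at 65.0 FPKM without and 240 with BMP4 at day 7. All 8 genes of the BMP list were higher with BMP4 at day 7 (median log2 difference 1.402). Over all 17200 genes with at least 1 FPKM in any of these libraries, 7119 were higher. Tbx3 was at 23.9 FPKM without and 51.4 with BMP4. Of the delivered factors, Sall4 was at 280 FPKM without and 194 with BMP4, Jdp2 at 234 and 259, Esrrb at 171 and 128, and Glis1 at 0 and 1.13.

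**Figure D4:**
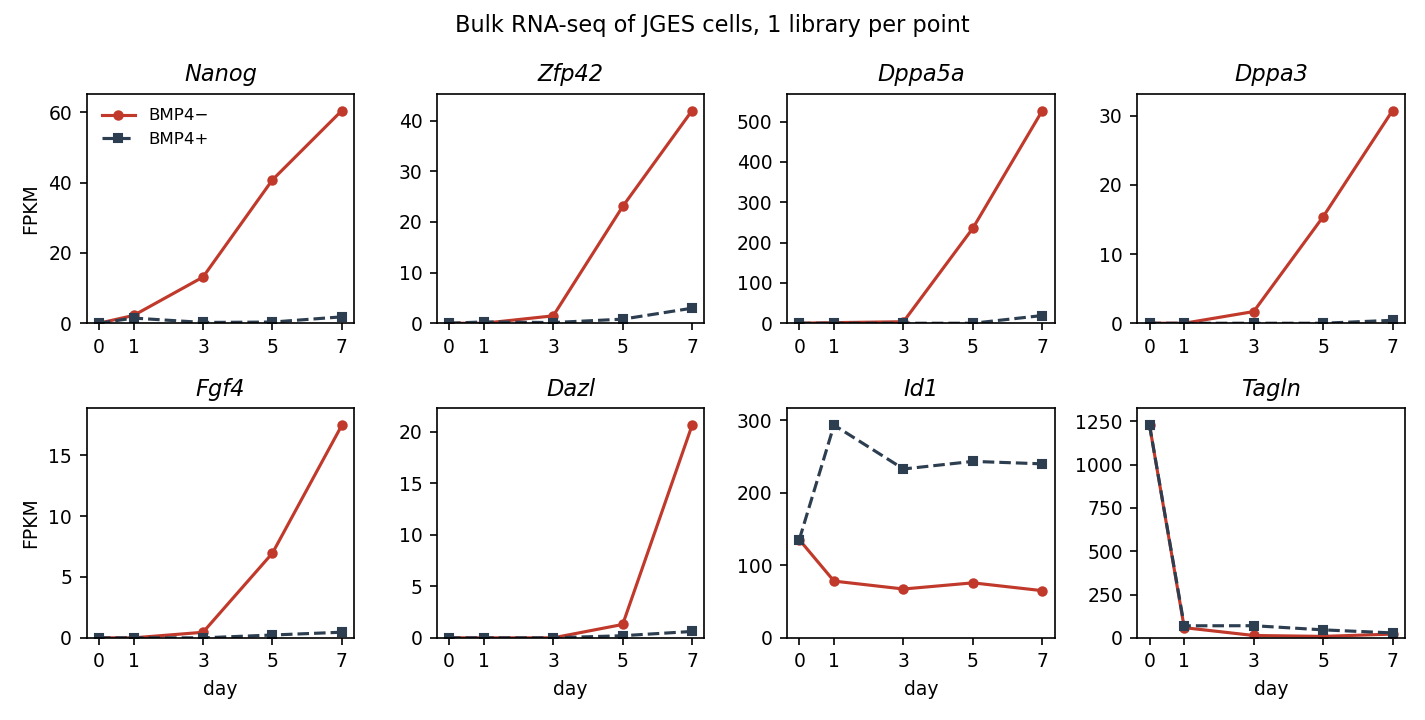
FPKM of 8 genes by day in bulk JGES cells without (red circles) and with BMP4 (dark squares), 1 library per point, day 0 shared. Nanog, Zfp42, Dppa5a, Dppa3, Fgf4 and Dazl climb to day 7 without BMP4 and stay near the axis with it, Id1 lies higher with BMP4, and Tagln drops from 1228 FPKM at day 0 in both.

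Genes of the small cluster were seen in bulk only in part. Rhox6 was at 0 FPKM up to day 3, 1.82 at day 5 and 2.202 at day 7 without BMP4, and at 9.73 at day 7 with BMP4. Dnd1 was at 6.74 FPKM without and 0.72 with BMP4 at day 7, and Sox15 at 9.71 and 0. Nanos3 was at 5.19, 6.45, 6.43 and 2.03 FPKM at days 1, 3, 5 and 7 without BMP4, and at 2.49 at day 7 with BMP4. Genes at least 2-fold lower in the small cluster had a median log2 change from day 5 to day 7 of 0.18 (214 of 349 higher), and those at least 2-fold higher 0.01 (87 of 173 higher), against 0 over all genes with at least 1 FPKM, of which 7816 of 16315 (47.9%) were higher.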

How the data were processed

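UMI counts of single cells at day 7 (10x droplets, 1 sample per condition) were deposited by the authors as a table of 20695 genes, made with STARsolo and Scanpy on mm10 with GENCODE vM21, with the cell type in each column name. For bulk libraries the authors deposited FPKM values, made with Trim Galore 0.6.4, HISAT2 2.2.1 and StringTie 2.2.1 on mm10. The table's 4510 columns of cells outside the 2 samples and the ESC reference were not used.

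UMIs were summed per type and divided by the type's total to give CPM. Ratios were compared with 4-fold for genes with at least 10 CPM in either group, and a group at 0 was set to 3 counts. Intervals are exact Poisson (CPM) and exact Clopper-Pearson (shares) at 95%. The limit for the BMP4+ share at 0 cells is instead 3 divided by the number of cells. No doublets were called, and leaving out the 6% of cells with the highest UMI totals stood in for it. Each cell was thinned to 4000 UMIs with a fixed seed. Clusters came from leidenalg 0.10.2 on principal components (scikit-learn 1.9.0). Bulk differences are of log2(FPKM + 1). Python 3.11.15, NumPy 2.4.6, SciPy 1.17.1 and pandas 2.3.3 were used, and the ratio and interval code was tested on simulated data.

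The cells and the 27 gene lists were chosen with earlier results of these data known. Genes named in the text are list members, the 20 highest and 15 lowest ratios among genes with at least 50 CPM, the 10 highest and lowest against the ESC columns, and genes said to be chosen after their values were seen. Promoters are from RefSeq (GRCm38.p6), with entries for 79 of 100 leading genes. Alternatives covered the cells taken, scaling, depth, the CPM minimum and the bulk pseudocount.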

Additional observations from a re-analysis of the deposited data

How the results depend on the processing

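Of 35 alternative values for the main results, 22 were counted as the same, 13 as moved and 0 as reversed. The share and the transcription factor median were compared with counting intervals, for the median that of its middle gene. Gene counts were called the same within a fixed fold, so that 371 higher genes against 276 counted as the same. The bulk median was called the same within a fixed difference. The share of pluripotent cells was 22.0% when cells needed UMIs of at least 3 of the 5 markers, 11.6% with that rule after thinning, and 15.9% from Leiden clusters with at least 4 markers over 4-fold, which leave out the small cluster. The genes at least 4-fold higher numbered 77 at a minimum of 50 CPM and 825 at 1 CPM, and those lower 73 and 1035, where fewer or more genes were tested, and 531 were lower with totals that leave out mitochondrial and ribosomal protein genes. The median of the transcription factors was 3.71 against intermediate cells alone. Against the ESC columns, 426 genes were higher without mitochondrial and ribosomal genes in the totals and 57 were lower with scaling by the median ratio. For these totals and scalings the cause was not tested. The bulk median was -4.21 with a pseudocount of 0.1 FPKM and -2.72 over genes with at least 1 FPKM in either library.

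The 19 genes recomputed between the Dppa5a groups kept their sign in cells with UMIs of at least 3 of Nanog, Zfp42, Tdgf1 and Utf1 and outside the deepest 6%, a setting chosen after seeing the data, with Fthl17c at 1.28, Fam25c at 1.36, Xist at -1.09, H19 at -0.85 and Pou5f1 at 0.51. Within the large cluster, also chosen after seeing the data, 18 of the 19 kept their sign, 12 of these moved past their counting interval, and Sox2 reversed to 0.12. Between the single-cell conditions no paired analysis was possible, because each was 1 sample. The bulk libraries do match by day, and a fit with day as a block was not run. With BMP4 minus without, the median log2 difference of the transcription factors was 0, -1.72, -2.72 and -3.42 at days 1, 3, 5 and 7. With 1 sample per condition, culture-to-culture spread is unknown, and intervals cover counting only. At 4000 UMIs a gene at 10 CPM is seen in few cells.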
